A study of Simmondsia chinensis with 44 samples.

Results

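The late-peaking seed coat genes of jojoba (Simmondsia chinensis) were 59 of the 23491 genes counted in developing and dry seeds. They were chosen by their level alone. In the time course, the late-seed mean, as the authors' normalized count plus 1, was at least 20 and at least 2 times the mean of early, mid and dry seed. In the dissected mid-stage seed, the seed-coat mean plus 1 was at least 10 and at least 2 times that of cotyledon and of embryonic axis. A normalized count is a read count divided by 1 size factor per library, and it is not divided by gene length, so levels are compared here between libraries of a gene and not between genes. Late seed against the other stages and seed coat against the embryo parts are therefore the measures that made the list, and they are given below as descriptions with no test.

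The data are 44 RNA-seq libraries, all from the germplasm PARL# 940. The time course held early-stage, mid-stage and late-stage developing seed and dry seed, with 6 libraries each. The dissection series held mid-stage seed coat, cotyledons, embryonic axis and undissected whole seed, in 5 libraries for each. No treatment is named, no age is given beyond the stage, and the labels do not say whether seeds of the time course kept their coat, how many seeds went into a library, or whether libraries of a group came from separate plants. All p-values thus rest on how far libraries of a group differ, and that spread may be technical. The seed coat was dissected at the mid stage alone, so the level of these genes within the coat of a late seed was not measured.

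The seed coat is maternal tissue that grows from the integuments of the ovule and surrounds the embryo, which consists of the cotyledons and the embryonic axis. In seed plants it passes nutrients to the growing embryo, and it later lays down the pigments, lignin and waxy or suberin-like barriers of the mature coat before its cells die. Jojoba is known for embryos that store liquid wax esters. Gene identifiers come without names in the tables used, so no function is given for any member, and the tissue labels could not be checked against marker genes. At most 2 members that were higher and 2 that were lower are named in each comparison.

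Time-course libraries held 7713214 to 23773845 counts and dissection libraries 9882334 to 32758764. Each series has its own normalization, so tests ran within a series. In a bulk sample, fewer cells of a type and less RNA per cell cannot be told apart.

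The members were a small share of the transcripts at every stage. They took 0.168% ± 0.016 of the counts in late seed, 0.0468% ± 0.0041 in early seed, 0.0506% ± 0.0114 in mid seed and 0.0210% ± 0.0045 in dry seed (SD, n = 6). Without the 3 members with the largest late-seed means, the mean share was 0.102% in late and 0.00591% in dry seed. It was then 0.0310% in early and 0.0370% in mid seed. In the dissection series all 59 members took 0.317% ± 0.023 of the counts in seed coat, 0.195% ± 0.025 in whole seed, 0.0760% ± 0.0523 in cotyledon and 0.0519% ± 0.0270 in embryonic axis (SD, n = 5). The other 1872 genes that met the same coat thresholds took their largest share in early seed, 18.7% ± 1.9, and 11.4% ± 1.6 in mid, 5.57% ± 0.22 in late and 3.13% ± 0.11 in dry seed (SD, n = 6). Of all 1931 genes that met the coat thresholds, 432 met the stage thresholds for early seed, 113 those for dry seed, 59 those for late seed and 24 those for mid seed, and the other 1303 met none. The members were 3.06% of the coat genes and 9.61% of the 614 genes that met the late-seed thresholds in any tissue.

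**Figure D1:**
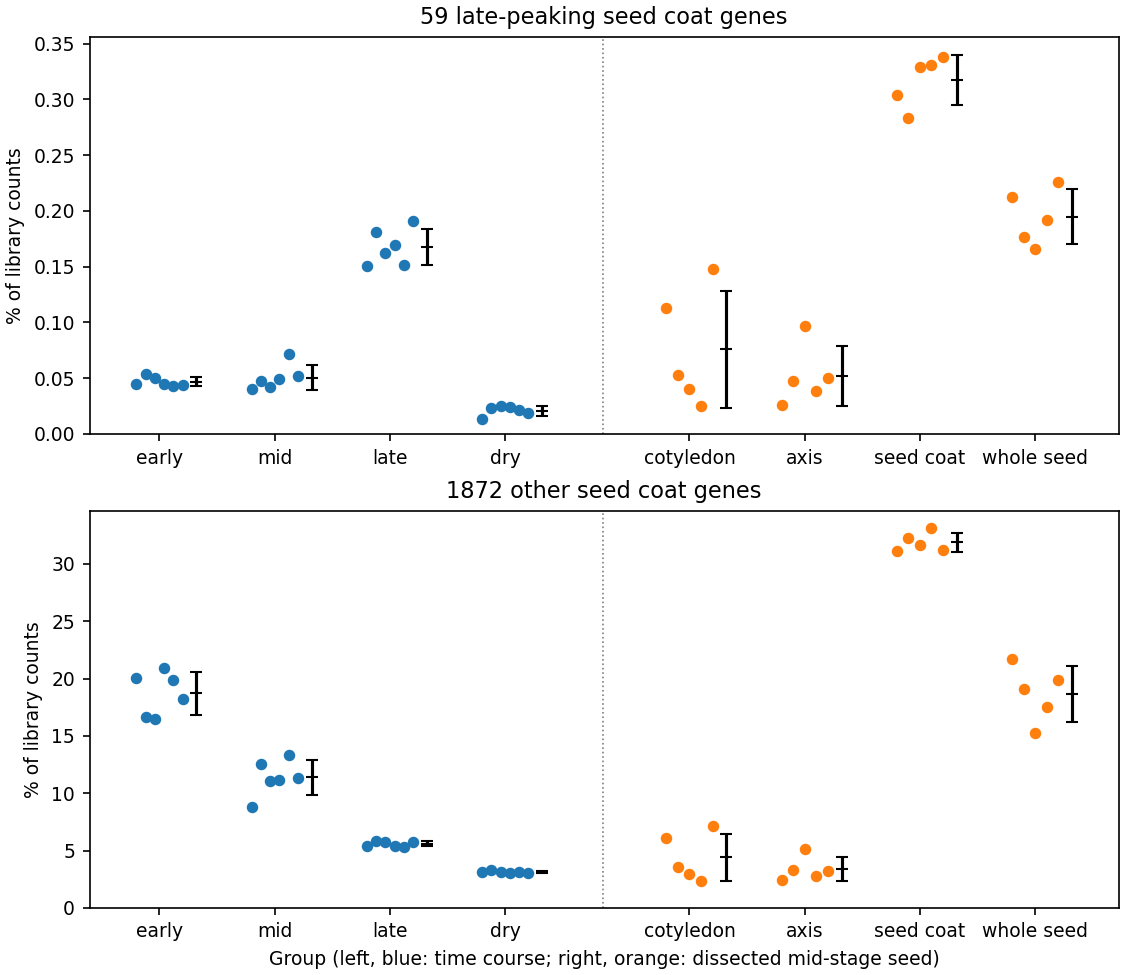
Share of library counts, in percent, on the 59 members (top) and on the 1872 other genes that met the coat thresholds (bottom), with 1 point per library and the mean ± SD beside it. The members stood at 0.151% to 0.191% in the late-seed libraries, above every early, mid and dry library, while the other coat genes fell from a mean of 18.7% in early seed to 3.13% in dry seed.

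The late-seed means of the members, as normalized counts and not per length, ran from 20.3 to 4246, which gives the depth behind each gene and no order of expression between genes. The late mean plus 1 was a median of 2.67 times that of the next highest stage, with a highest value of 13.3 times, and 10 members were at least 4 times above every other stage. The next highest stage was mid seed for 34 members, early seed for 21 and dry seed for 4. The late libraries all lay above every early, mid and dry library for 42 members. Over all genes with a mean normalized count of at least 1 this was so for 4.63%, and the members' count follows from how they were chosen.

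Many members lay close to a threshold, so the edge of the list is soft. Without cotyledon libraries 1 and 5 and axis library 3, described below, the same thresholds gave 90 genes, 58 of them members. Within 10% of their nearest threshold there were 20 members. A further 35 genes were left out for missing 1 or more thresholds, none of them by more than that margin. The closest inside were Sc01g0010000 with late seed at 2.001 times mid seed and Sc25g0002360 with seed coat at 2.03 times axis. The closest outside were Sc21g0001920 and Sc08g0004270, with seed coat at 1.99 and 1.98 times cotyledon.

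Sc03g0006910 had the largest late-seed mean count, not per length, and was named for it. Its normalized count in late seed had a lowest, median and highest value of 2493, 3719 and 7313. In early seed these were 172.8, 404 and 534, in mid seed 79.0, 162.6 and 210.0, and in dry seed 552, 1305 and 3644. Late and dry libraries overlapped, and every library of either lay above all early and mid libraries. It was 1 of the 16 members whose dry-seed mean was at least 10% of the late-seed mean.

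Sc01g0001230 was named for the next largest late-seed and the largest seed-coat mean count, again not per length. Its late-seed libraries ran from 1678 to 4366 with a median of 3736, its mid-seed libraries from 538 to 1339 with a median of 809, and its early-seed libraries from 271 to 986 with a median of 770.3. In dry seed it ran from 0 to 4.41 with a median of 1.99, from 16 reads in all 6 libraries. The late libraries lay above all others, and dry seed lay below all others. Sc22g0005090, named for the next largest seed-coat count, ran from 686 to 1217 in late seed (median 794), from 177.8 to 286 in mid seed (median 211), from 37.5 to 145 in early seed (median 120.3) and from 0.682 to 10.1 in dry seed (median 4.49).

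**Figure D2:**
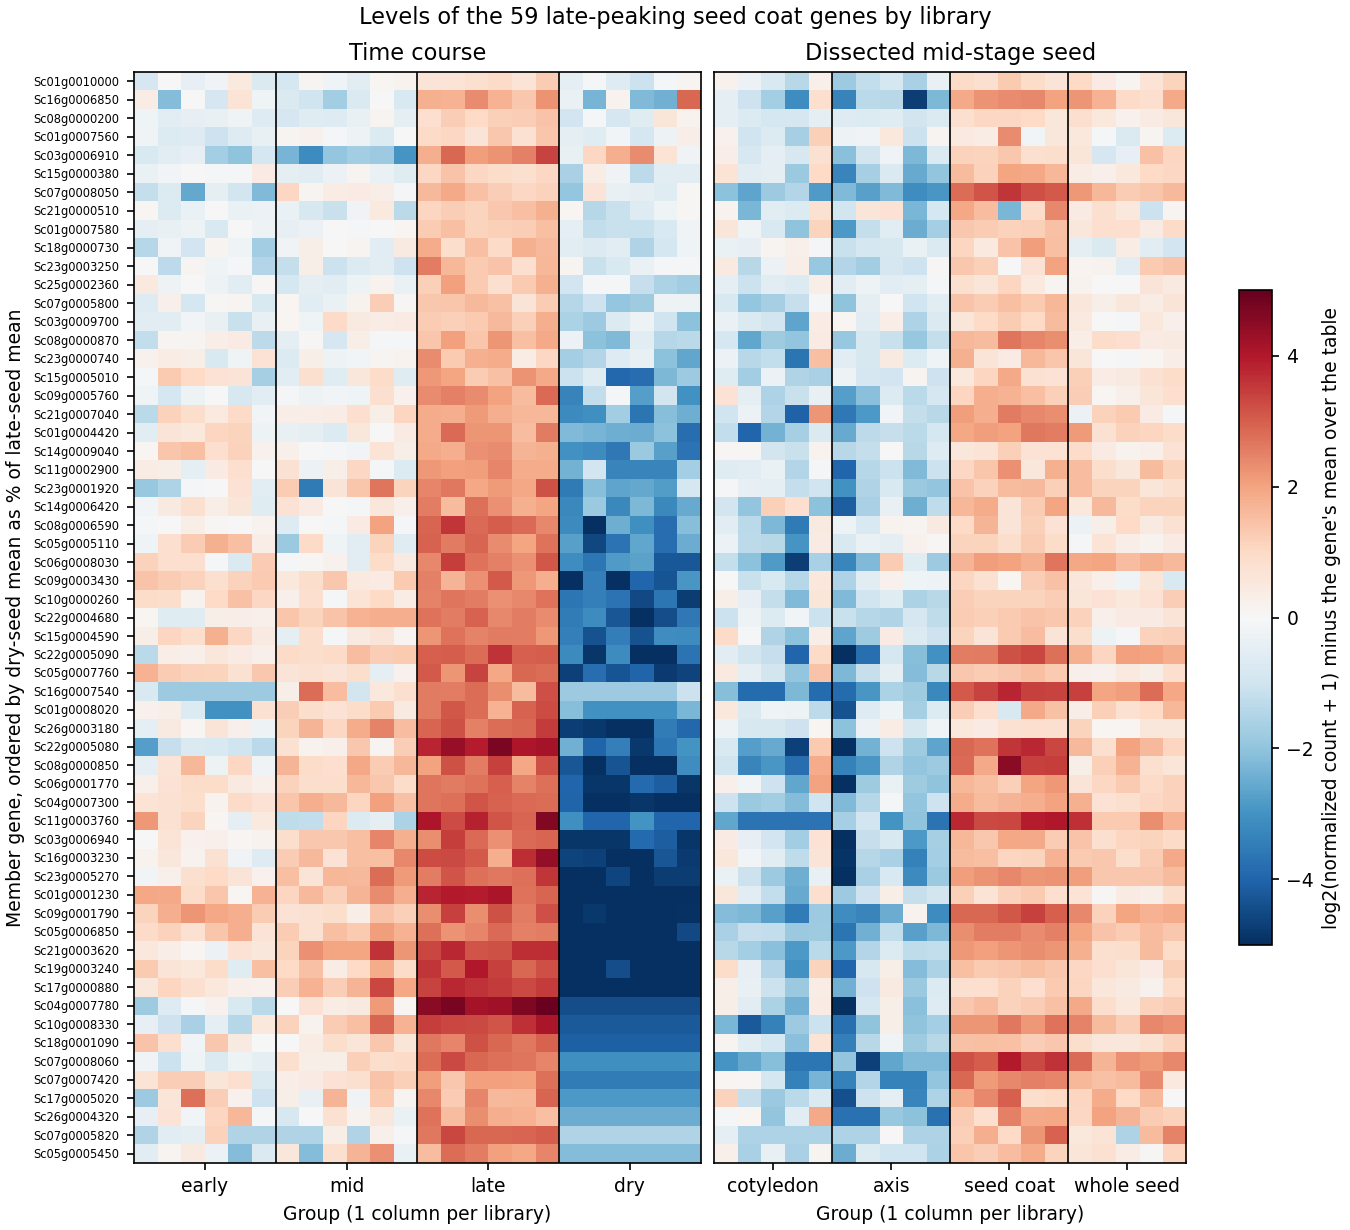
Level of each member (rows) in each library (columns), as log2(normalized count + 1) minus the gene's mean over the series, for the time course (left) and the dissected mid-stage seed (right). Rows run from members with the largest dry-seed mean relative to late seed (44.6%) at the top to those with none at the bottom, and colours saturate at 5 log2 units. Dry seed is pale in the upper rows and deep blue in many of the lower ones. It is paler again in the lowest rows, where members had low counts at every stage.

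The thresholds kept early and mid seed both under the late-seed level and set no order between them. They did ask for a minimum level in the coat at the mid stage and for no such level in early seed, so all genes tested are not a matched background, and the shares below are descriptions. By edgeR's quasi-likelihood test across 18440 genes, at an adjusted p under 0.05, 22 of the 59 members were higher in mid seed, or 37.3%, where 26% of all genes tested were higher. There were 5 members lower, or 8.47%, where 23.6% of all genes were, and the other 32 did not pass. Of the 59 members, 17 were called higher and 2 lower by at least 2-fold, where 10.3% and 9.26% of all genes were. The median log2 difference was 0.29 over the members and 0.02 over all genes. Without mid-seed library 5, 19 members were higher and 6 lower, and the members' median was 0.15. Of the 543 tested late-peaking genes that are not members, which met the same stage thresholds, 38.9% were higher in mid seed and 5.34% lower, close to the members' shares. Of the 1749 tested coat genes that are not members, 9.61% were higher and 48.3% lower.

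Sc21g0003620 was higher in mid seed. Its normalized count ran from 64.4 to 132.5 in early seed with a median of 107.8, and from 170.4 to 967 in mid seed with a median of 341. The stages did not overlap, and mid-seed library 5 was far above the other mid libraries. The log2 difference was 2.09 ± 0.29 (SE, edgeR adjusted p = 1.97e-06). Sc22g0004680 ran from 32.5 to 64.0 in early seed (median 57.9) and from 109.2 to 182.5 in mid seed (median 154.9), again with no overlap, and its log2 difference was 1.63 ± 0.23 (SE, edgeR adjusted p = 2.95e-06). Of the 59 members, 11 were higher in mid seed with no overlap of early and mid libraries, where 16.6% of all genes tested were, a similar share. None of the 5 lower members was without overlap, where 13.9% of all genes were lower without overlap. No lower member thus met the naming rule, which asks for separate libraries.

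Mid-seed library 5 was high across the list. The members took 0.0719% of its counts and 0.0402% to 0.0519% of those of the other mid-seed libraries, and 49 of 59 members were above their mid-seed mean in it. The other coat genes took 13.3% of its counts and 8.79% to 12.6% in the others. The part of the coat share in the mid-seed values was not tested.

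In dry seed the members differed widely relative to their late-seed level. The dry mean was under 1% of the late mean for 33 members, 1% to 10% for 10 and at least 10% for 16, where it ran from 13.1% to 44.6%. No read was counted in any dry-seed library for 9 members, where a floor of 3 counts per library applies. Dry seed was also compared with early and mid seed. The thresholds set no order between them, but they kept dry seed under the late-seed level and asked for a minimum level in the mid-stage coat, so all genes tested are again no matched background. By edgeR 45 of 59 members were lower in dry than in early seed, or 76.3%, where 42.7% of all genes tested were lower, and 2 members were higher, or 3.39%, where 40.6% of all genes were. Against mid seed 49 members were lower, or 83.1%, where 43.7% of all genes were, and 2 were higher, where 38.1% of all genes were. Of the coat genes that are not members, 76.3% were lower in dry than in early seed and 73.7% lower than in mid seed, near the members' shares. Of the late-peaking genes that are not members, 39.2% and 54.7% were lower.

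Against early seed 42 of the 59 members were called lower by at least 2-fold, where 33% of all genes were. By at least 16-fold 30 were lower, where 13% of all genes and 46.1% of the other coat genes were. Against mid seed these numbers were 46 of the 59, where 33.2% of all genes were, and 33, where 12.5% of all genes and 41.6% of the other coat genes were. These counts used the fitted values, with no floor for the 9 members without dry-seed reads. Without reads a fitted value depends on the prior count, as for Sc05g0005450 at -4.48 against early and -6.14 against mid seed. The median log2 difference of the members was -4.20 against early and -4.74 against mid seed, and -2.98 and -3.74 with the 9 members without reads set to the floor. The median over all genes was -0.05 and -0.11. It moved to -0.30 and -0.28 with upper-quartile scaling, where 49 and 51 members were lower. Both comparisons share the dry-seed libraries. The labels do not say whether dry seeds kept their coat, and the part of a missing coat in these values was not tested.

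Sc17g0000880 was among the largest falls. Its normalized count ran from 79.2 to 145 in early seed (median 100.4), from 162.5 to 704 in mid seed (median 227) and from 674 to 943 in late seed (median 782). In dry seed it had 1 read in library 1 and none in the other 5 libraries. The pooled count, relative to library size, was 761 times higher in early than in dry seed (95% counting interval 136.0 to 30093) and 2207 times higher in mid than in dry seed (395.6 to 87202), and edgeR's adjusted p was 8.80e-13 and 1.17e-14. Sc09g0001790 ran from 109.2 to 234 in early seed (median 182) and had 2 reads in all dry-seed libraries, a pooled ratio of 607 (167.4 to 5016; edgeR adjusted p = 2.73e-15). Sc21g0003620, named above for its rise into mid seed, had 3 reads in all dry-seed libraries, and its pooled mid-to-dry ratio was 1061 (363 to 5148; edgeR adjusted p = 1.25e-14). Those intervals cover counting error only. Without dry-seed library 1 no dry-seed read was left for Sc17g0000880, and its fitted log2 difference, which for so few reads depends on the prior count, went from -8.62 to -9.70 against early and from -10.15 to -11.23 against mid seed; without library 6 that of Sc21g0003620 went from -9.65 to -10.49.

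Sc03g0006910 went the other way. It was higher in dry than in early seed, with a log2 difference of 2.24 ± 0.40 (SE, edgeR adjusted p = 1.57e-05), and higher in dry than in mid seed, with 3.47 ± 0.43 (SE, edgeR adjusted p = 5.10e-08). Every dry library was above every early and mid library. One other member was higher in each comparison, with libraries that overlapped: Sc07g0008050 against early seed (log2 difference 1.096 ± 0.38, SE, edgeR adjusted p = 0.0108) and Sc16g0006850 against mid seed (1.68 ± 0.77, SE, edgeR adjusted p = 0.0473). For the second, dry-seed library 6 stood at 63.8 and the other dry-seed libraries at 0.682 to 9.27, and the call was lost without that library, as it was without mid-seed library 1, 2, 3, 4 or 6. Both were named after their values were seen, because the count was so small.

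The classes of dry-seed level can be set beside the comparison of mid with early seed. Of the 33 members with a dry mean under 1% of the late mean, 17 were higher in mid than in early seed and 3 lower. Of the 10 members at 1% to 10% these numbers were 1 and 1, and of the 16 at 10% or more they were 4 and 1. A difference between these classes was not tested. Read over all 3 comparisons, 17 members were higher in mid than in early seed and lower in dry seed than in both, where 6.88% of all genes were. A further 23 passed only both falls into dry seed, where 18.9% of all genes did, and 5 passed none, where 7.31% of all genes did.

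**Figure D3:**
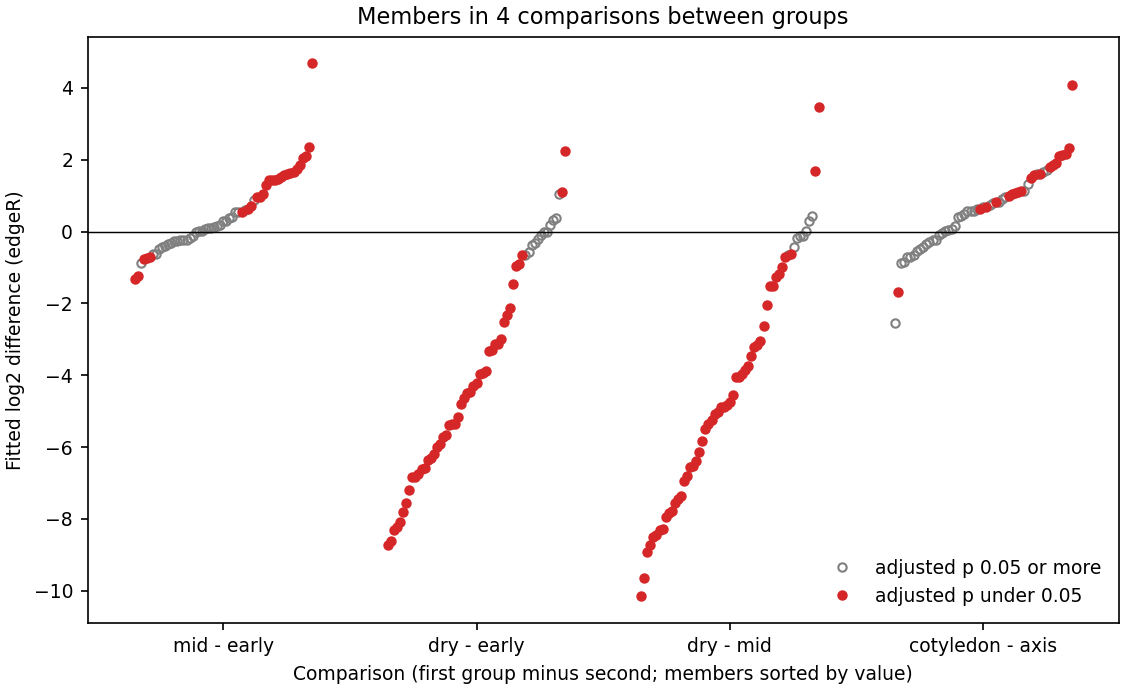
Fitted log2 difference of each member in the 4 comparisons tested, with the first group named minus the second, members sorted by value, and filled red points for an adjusted p under 0.05 by edgeR. Members spread from -1.31 to 4.68 among the calls between mid and early seed, and down to -8.72 and -10.15 in the comparisons with dry seed. The 4.68 is that of Sc16g0007540, which had 1 read in early-seed library 1 and none in the other early libraries. The next largest call there was 2.36, of Sc10g0008330.

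In the dissected seeds the seed-coat mean counts of the members, not per length, ran from 10.9 to 6516. The coat mean plus 1 was a median of 3.16 times that of the higher embryo part, from 2.03 to 61.5 times, and 22 members were at least 4 times and 12 at least 10 times above both parts. The coat libraries all lay above every cotyledon and axis library for 44 members. Over all genes this was so for 12.5%, and again the members were chosen for it. Members with at least 4-fold margins in stage and tissue numbered 5.

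Sc01g0001230 stood at 7115, 5033, 6970, 7755 and 5708 in the coat libraries, at 4622, 2201, 1337, 549.9 and 5453 in the cotyledon libraries and at 891, 1540.2, 3885, 1415 and 1675 in the axis libraries. The highest cotyledon library lay within the range of the coat. Sc22g0005090 was more sharply separated, at 3324, 3440, 5109, 5667 and 3846 in coat, at 396, 299, 251, 34.95 and 1102 in cotyledon and at 1.57, 39.99, 311, 129.3 and 68.9 in axis. In both genes cotyledon libraries 1 and 5 and axis library 3 were the highest of their tissue.

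That pattern ran through the list. Among 45 members with a cotyledon mean of at least 20, libraries 1 and 5 were the highest of the 5 for 36, or 80.0%, against 21.0% of all 16508 genes at that level. Among 42 members at that level in axis, library 3 was the highest for 31, or 73.8%, against 23.4% of 16761 genes. The coefficient of variation of such members had a median of 63.2% in cotyledon and 56.5% in axis, against 23.2% and 13.6% over all genes, while in seed coat it was 20.4% against 18.6%.

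The same libraries were high for coat genes that were not members. The members took 0.113%, 0.0532%, 0.0404%, 0.0251% and 0.148% of the counts in cotyledon libraries 1 to 5, and the other coat genes 6.05%, 3.58%, 2.95%, 2.37% and 7.10%. In axis libraries 1 to 5 the members took 0.0260%, 0.0479%, 0.0972%, 0.0383% and 0.0503%, and the other coat genes 2.41%, 3.29%, 5.12%, 2.79% and 3.18%. Both shares put the libraries of a tissue in nearly the same order. Between the lowest and the highest library, the rise of the members' share was 2.60% of the rise of the other coat genes' share in cotyledon and 2.63% in axis. In the seed coat itself the members' share was 0.878% to 1.08% of that of the other coat genes, and in late seed 2.78% to 3.32%. The members were chosen for a high late-seed level and the other coat genes were not, so the late-seed value follows in part from that choice. The part of coat RNA in the embryo libraries' values was not tested.

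**Figure D4:**
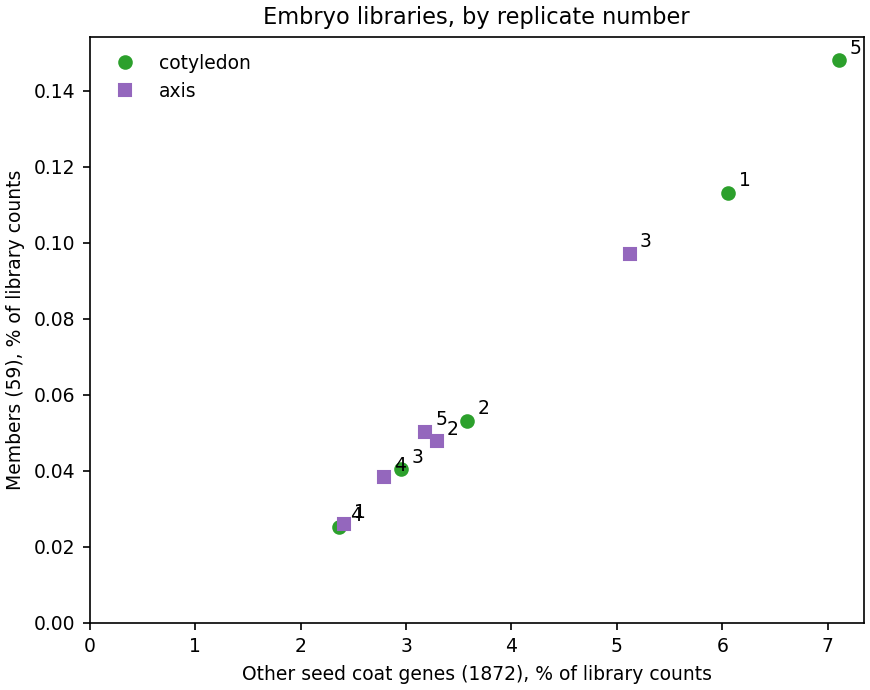
Share of library counts on the 59 members against that on the 1872 other coat genes in the 5 cotyledon (circles) and 5 embryonic axis (squares) libraries, in percent, with the replicate number beside each point. Cotyledon libraries 1 and 5 and axis library 3 stand above the others of their tissue on both axes.

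The order of cotyledon and axis was not set by the thresholds either. The filter on low counts kept 57 of the 59 members in the dissection series. By edgeR 19 of these were higher in cotyledon, or 33.3%, where 22.9% of all 18499 genes tested were higher, and 1 was lower, or 1.75%, where 20.5% of all genes were. The median log2 difference was 0.69 over these members and 0.00 over all genes. This count was not stable, and its excess over all genes was lost under several alternatives. Without cotyledon libraries 1 and 5 and axis library 3, an alternative added after seeing the data, 8 members were higher, or 13.6% where 19.7% of all genes were, 3 were lower, and the members' median was 0.32. The higher count was 9 without cotyledon library 5, or 15.5% where 22.6% of all genes were. It was 10 without axis library 1 (17.5% against 19.7%), 11 without axis library 4 (19% against 20.4%) and 6 with only the 2 tissues in the fit (12.8% against 20.7%). Of the coat genes that are not members, 29.2% were higher in cotyledon and 5.90% lower with all libraries.

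Sc16g0003230 was the 1 member higher in cotyledon whose libraries did not overlap, where 13.5% of all genes tested were higher without overlap. Its normalized count was 1190, 716, 538, 332 and 1247 in cotyledon and 25.9, 292, 255, 75.6 and 241.5 in axis, a log2 difference of 2.17 ± 0.44 (SE, edgeR adjusted p = 4.76e-04). In seed coat it was 2377, 2281, 1662, 1727 and 2676, above every embryo library. The only lower member, Sc06g0008030 (log2 difference -1.67 ± 0.65, SE, edgeR adjusted p = 0.0423), had overlapping libraries and was named after its value was seen. No member was lower without cotyledon library 2, 3 or 4 or axis library 3 or 4.

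Whole seed, which no threshold used, lay between the tissues. Its mean was below the coat mean for all 59 members and above both embryo means for 57, and it was a median of 61.2% of the coat mean, from 18.0% to 96.9%. All 5 whole-seed libraries lay above every cotyledon and axis library for 24 members, where this was so for 6.66% of all genes, and below every coat library for 21 members, where this was so for 6.55% of all genes. The lowest fraction was that of Sc08g0000850 and the highest that of Sc16g0003230, named for these extremes. No test was made, because coat, cotyledon and axis libraries chose the members.

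The whole seed of the dissection series and the mid seed of the time course carry the same stage in their labels, yet the members stood far apart in them. As CPM, counts scaled to the library total, all whole-seed libraries were above all mid-seed libraries for 39 of 59 members, or 66.1%, where this was so for 14.1% of 17674 genes at 1 CPM or more in either group. They were below for 2 members, or 3.39%, where 29.2% of all genes were. The median log2 ratio of whole to mid seed, with 0.5 CPM added, was 1.66 over the members and -0.24 over all genes. Part of this follows from the choice of members, which asked for a low mid-seed mean relative to late seed. It also asked for a coat mean above both embryo parts in the dissection series, where whole seed includes the coat. The late-peaking genes that are not members met only the first condition and had a median of 0.37. Most of them met the tissue thresholds, which ask for a lead over both other tissues, for no single dissected tissue. As a list they were high in both embryo parts, with mean shares of counts of 19.8% in cotyledon and 20.6% in axis. In seed coat their mean share was 1.59%. The other coat genes, which did not meet the late-seed thresholds, had 0.41. Neither list was chosen by both conditions, so neither is a matched background.

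Sc18g0001090 had the largest such ratio, with 48.3 ± 8.5 CPM in whole seed (SD, n = 5) against 2.10 ± 0.66 in mid seed (SD, n = 6), a log2 ratio of 4.23. Sc04g0007780 was next, with 56.4 ± 18.2 CPM in whole seed (SD, n = 5) against 3.02 ± 2.14 in mid seed (SD, n = 6), a log2 ratio of 4.01. Both were picked as the extremes. The series were counted and normalized separately, so the ratios carry no test, and stage within the mid label, dissection and series cannot be told apart.

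**Figure D5:**
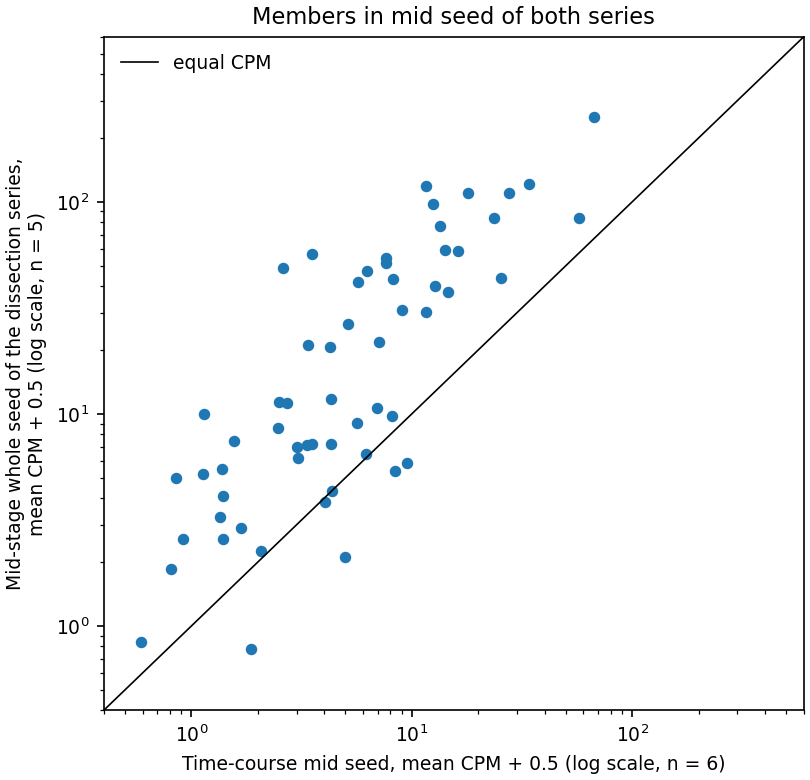
Mean CPM plus 0.5 of each member in mid-stage whole seed of the dissection series against mid seed of the time course, on log axes, with a line at equal CPM. Of the 59 members 54 had the higher mean in whole seed, and for 39 the libraries did not overlap.

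The members were spread over the identifier series. They carried 21 of the 26 numbered prefixes, from 1 to 6 members each, with the highest fraction of the genes under a prefix for Sc23, 4 of 709 or 0.564%. There were 6 pairs of members within 3 rows of each other in the tables, 12 genes in all, and 2 of these pairs were in adjacent rows. Sc22g0005080 and Sc22g0005090 had means of 528 and 847 in late seed, 47.1 and 219 in mid seed and 1280.0 and 4277 in seed coat. Sc07g0008050 and Sc07g0008060 had 64.1 and 58.5 in late seed and 331 and 276.5 in seed coat. In dry seed that last pair parted, with 19.3 ± 10.6 for the first (SD, n = 6) and no read in any library for the second. Near-identical neighbouring copies could share reads, and the row order was read from the tables and not from a genome.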

How the data were processed

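Per the labels, a hot-borate extraction and a stranded mRNA kit gave the libraries. Trimmomatic, STAR and DESeq2 are named, without versions, in the submitters' processing notes. The counting step, genome build, annotation and use of strand were not given in the sources used here, so antisense overlap or near-identical copies may add reads to a gene. The authors deposited raw read counts per gene for each series. They also deposited normalized counts, a signal equal to the count divided by 1 factor per library (largest relative deviation 1.10e-09).

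Members were taken from the deposited normalized counts, and tests ran on the deposited counts. The members and lists were chosen with earlier results of these data known. edgeR 4.0.16 (R 4.3.3) was used with TMM, filterByExpr, glmQLFit and glmQLFTest, all 4 groups of a series in 1 fit and Benjamini-Hochberg adjustment over all genes tested. SEs were the log2 difference divided by the square root of the F statistic. The 4 comparisons tested are those between groups that the thresholds put in no order, although the means of these groups enter the thresholds. The procedure was tested on simulated data only for mid against early seed and cotyledon against axis, with only the 2 groups in the fit. Those data held no shift shared by many genes of a library, so no result here rests on them.

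Named genes were the 2 highest in late seed and in seed coat, and per comparison at most 2 higher and 2 lower, by log2 difference among those with an adjusted p under 0.05, a mean of 5 CPM or more in the higher group and no overlap of libraries; exceptions are stated. Libraries of a group were compared for duplicates, and every pair differed by more than counting noise (chi-square over its degrees of freedom 8.84 or more). Python 3.11.15 with pandas 2.3.3 and matplotlib 3.10.9 made tables and plots.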

Additional observations from a re-analysis of the deposited data

Results flagged for a closer look

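Of 80 groups of values checked, 8 held 1 library whose gap to the nearest other, divided by the group's whole range, was above Dixon's 95% critical value. By that definition chance marks about 1 group in 20 where values are normally distributed, which was not checked here, and the groups share libraries. Library 5 of mid seed was the high one in 3 of them: the members' share of counts was 0.0719% there and 0.0402% to 0.0519% in the others, Sc21g0003620 stood at a normalized count of 967 and at 170.4 to 394 in the others, and Sc17g0000880 at 704 and at 162.5 to 264. Sc01g0001230 stood at 3885 in axis library 3 and at 891 to 1675 in the others. Sc09g0001790 stood at 237.8 in axis library 4 and at 20.5 to 36.4 in the others. Sc22g0005090 stood at 37.5 in early-seed library 1, with 115.9 to 145 in the others, and at 1217 in late-seed library 4, with 686 to 803 in the others. Sc17g0000880 stood at 0.881 in dry-seed library 1, which was 1 read, and at 0 in the others.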

How the results depend on the processing

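The comparisons of mid with early seed and of dry with early seed kept their counts within 1.5 times under every alternative tried: DESeq2 1.42.0's Wald test, DESeq2 size factors, upper-quartile scaling, no filter, only the 2 groups compared, the replicate block and each library left out. With single libraries left out, members higher and lower in mid than in early seed ranged from 17 to 21 and from 4 to 6, and members higher and lower in dry than in early seed from 2 to 3 and from 43 to 46. Against mid seed the lower count ranged from 48 to 51 and the higher count from 1 to 2. That higher count was 1 with DESeq2 size factors, upper-quartile scaling, the replicate block and only the 2 groups compared. Members higher in cotyledon than in axis ranged from 9 to 27 with single libraries left out and lower ones from 0 to 2. They were 6 and 0 with only the 2 groups compared, where edgeR at an unadjusted p under 0.05 gave 11 and 0 and fewer members passed the filter (47), and 8 and 3 without the 3 embryo libraries richest in coat genes. The cause was not tested.

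The replicate numbers paired no libraries by the labels, and same-numbered libraries correlated at -0.236 to 0.188, with 1 of 23 pairs over 0.1. With the replicate block, 20 members were higher and 5 lower in mid than in early seed. These numbers were 2 and 46 in dry than in early, and 1 and 49 in dry than in mid. In cotyledon against axis the block gave 14 and 0, and 22 and 2 at edgeR's unadjusted p under 0.05. DESeq2's Wald test, which had no block, gave 21 and 1 there at an adjusted p under 0.05, with 59 members tested. Not every library correlated best with its own number (4 of 23 did).

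The list itself held 14 genes at 3-fold and 199 at 1.5-fold thresholds, and between 52 and 73 with each early, mid, late, dry, cotyledon, axis or coat library left out (73 without cotyledon library 5). Without cotyledon libraries 1 and 5 and axis library 3 it held 90, 58 of them shared. Omissions outside late seed and coat were added after seeing the data. With group medians it held 76 genes, 50 of them shared, without late-seed libraries 4 and 6 it held 51, 48 of them shared, and with TMM CPM 58. The 9 named test values kept their sign and their call in all 161 values under the alternatives.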
